A study of Mus musculus with 16 samples.

Results

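The glycolytic pathway was followed through 10 enzyme genes in RNA from sorted mouse retinal microglia: Hk1, Hk2, Gpi1, Pfkl, Aldoa, Aldoc, Tpi1, Eno1, Pkm and Ldha. They were taken by symbol from a gene table of 54532 rows, where the 10 symbols matched 11 rows because Aldoa is listed under 2 identifiers. The first Aldoa row (ENSMUSG00000030695) held 4154 to 21840 counts per library and was used throughout. The second (ENSMUSG00000114515) held 0 to 11 counts per library, stayed under the low-count filter and is not used. All 10 genes were among the 12496 tested. The comparison set microglia of retinas with oxygen-induced retinopathy (OIR, 8 libraries) against microglia of retinas without it (nonOIR, 8 libraries). In the OIR model pups are kept for a time in raised oxygen, which halts the retinal vessels, and back in room air the retina is short of oxygen and new vessels grow out of place. Both groups were Cx3cr1CreERT2:Rosa26-tdTomato reporter mice at postnatal day 17, injected at postnatal day 1 with 5 µl of tamoxifen at 21 mg per ml, so reporter and tamoxifen were shared by OIR and nonOIR. In these mice the Cx3cr1 gene's activity drives the recombinase, and the cells were sorted as tdTomato-positive, CD11b-positive, CD45-low and negative for Ly6C and Ly6G. In each group 5 libraries carry lane code 1 and 3 carry lane code 2, and the labels do not say whether the code also marks a batch of animals or preparation. The labels do not state that libraries come from separate animals, so the tests below are against the spread among libraries, and some of it may be technical.

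Glycolysis splits glucose into pyruvate in the cytosol and yields ATP without oxygen. Hexokinases trap glucose as its phosphate, phosphofructokinase makes the committed step, aldolase splits the sugar, and the lower steps return ATP through phosphoglycerate kinase and pyruvate kinase, after which lactate dehydrogenase regenerates NAD by turning pyruvate into lactate. Macrophages and microglia are known to use more glycolysis when activated, and many of these genes are targets of the hypoxia-inducible factors.

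Gene counts summed to between 20771745 and 30001463 per OIR library and between 13591651 and 27972049 per nonOIR library. The 10 microglial marker genes on the list used here were all expressed, at a summed 38159 to 63417 CPM (counts scaled to a fixed library total, with library sizes adjusted by the trimmed mean of M values, TMM) in OIR and 65173 to 80702 CPM in nonOIR, and 4 of 10 fell and 0 rose in OIR. Ly6c2 and Ly6g, which the sort selects against, had 0 counts in all 16 libraries. They belong to a list of 8 monocyte and granulocyte genes, which summed to 3.85 to 16.0 CPM in OIR and 4.43 to 8.125 CPM in nonOIR. Its 2 tested genes, Ccr2 and Plac8, did not pass (edgeR adjusted p = 0.935 and 0.0510). Plac8 was at 3.23 ± 3.62 CPM in OIR and 0.831 ± 0.399 CPM in nonOIR (SD, n = 8 each). Markers of dividing cells rose in OIR for 7 of 8 genes and fell for 0. Globin and other erythrocyte genes summed to 1.87 to 292 CPM in OIR and 0 to 28.9 CPM in nonOIR, and the 2 of 7 that were tested both rose. Within lanes these sums did not overlap (1.87 to 234 CPM in OIR and 0 to 1.56 CPM in nonOIR for lane 1, 50.4 to 292 CPM in OIR and 2.72 to 28.9 CPM in nonOIR for lane 2). OIR replicate 1 had the fewest genes with a count (16019) and stood apart on the third principal component, and on the first OIR replicates 1 and 2 lay nearest to the nonOIR libraries.

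Most enzymes after the hexokinases were higher in OIR. Gpi1, Pfkl, Aldoa, Tpi1, Eno1, Pkm and Ldha rose, Aldoc fell, and Hk1 and Hk2 did not pass the test, so 7 of 10 genes rose and 1 of 10 fell. The test was edgeR's quasi-likelihood test, with p-values adjusted by Benjamini-Hochberg over 12496 genes and called under 0.05. By that rule 10.9% of all genes tested were called, 6.39% as higher and 4.56% as lower. The median log2 fold change of the 10 was 0.71, against -0.03 over all genes tested. In 5 of the 10 (Gpi1, Aldoa, Tpi1, Pkm and Ldha) every OIR library lay above every nonOIR library, a pattern found in 1.34% of all genes tested, and in none of the 10 did every OIR library lie below every nonOIR library (0.688% of all genes). The 10 genes were chosen with earlier results of these data known, so these contrasts with all genes are descriptive only. Summed over the 10 genes, OIR libraries held 1855 to 3311 CPM and nonOIR libraries 1300 to 1678 CPM. The count of 7 higher and 1 lower was the same with lane as a covariate (9.68% of all genes higher, 7.59% lower), with library totals (8.16% and 2.91%), with upper-quartile scaling (5.4% and 5.18%) and with DESeq2 (7.16% and 5.58%). The authors' deposited table lists the same split, with 7 of the 10 higher, 1 lower and 2 not past an adjusted p of 0.05. In such bulk samples fewer cells of a type and less RNA per cell cannot be told apart.

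**Figure D1:**
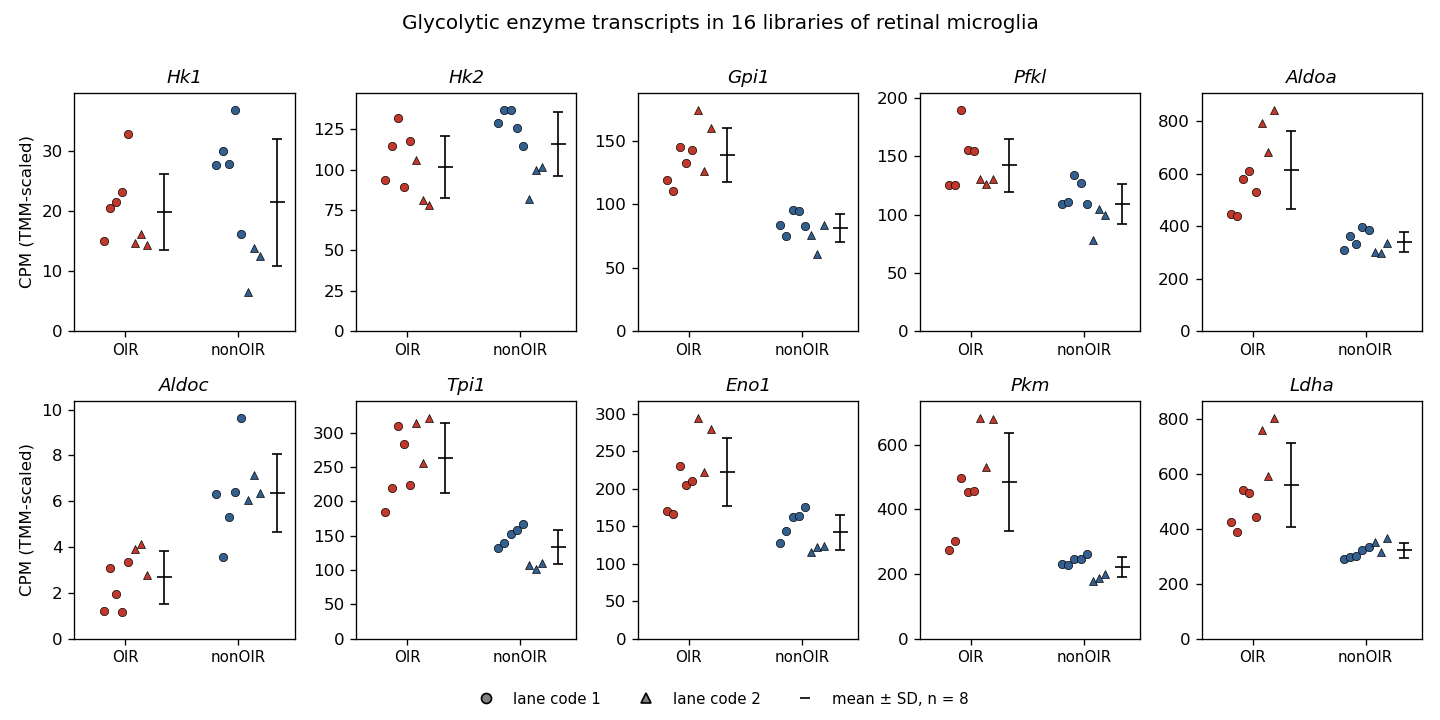
CPM (TMM-scaled, linear axes from 0) of the 10 enzyme genes in 8 OIR and 8 nonOIR libraries, with circles for lane code 1, triangles for lane code 2, and bars for mean ± SD. Groups separate without overlap for Gpi1, Aldoa, Tpi1, Pkm and Ldha, OIR lies below most nonOIR libraries for Aldoc, and the groups overlap widely for Hk1 and Hk2.

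At the entry step no gene passed the test with group as the single factor over all 16 libraries. Hk3 passed under some alternatives given below. Hk2, the inducible hexokinase that binds mitochondria, had 78.0 CPM as lowest, 99.8 as median and 132 as highest value in OIR, against 81.5, 120 and 137 CPM in nonOIR. Its log2 fold change was -0.19 ± 0.13 (SE, edgeR adjusted p = 0.382), the groups overlap, 2 of 8 OIR libraries lay below the lowest nonOIR library, and 1 of 8 lay above the nonOIR median. Hk1, the broadly expressed hexokinase, was at 14.4, 18.4 and 32.9 CPM (lowest, median, highest) in OIR and at 6.55, 22.0 and 36.8 CPM in nonOIR, and its log2 fold change of -0.11 ± 0.29 did not pass (SE, edgeR adjusted p = 0.859). The OIR values lay wholly inside the nonOIR range, and the direction was not stable, since the log2 fold change was 0.50 in lane 2 alone and 0.04 without nonOIR replicate 4. Hk3, the hexokinase of leukocytes, and Adpgk, which uses ADP as phosphate donor, did not pass either. Hk3 had 111 ± 13.4 CPM in OIR and 88.3 ± 16.9 CPM in nonOIR (SD, n = 8 each, edgeR adjusted p = 0.0756) and did pass once lane entered the model (log2 fold change 0.35, edgeR adjusted p = 0.0259), with library totals (edgeR adjusted p = 0.0314), without OIR replicate 2 (edgeR adjusted p = 0.0355), in lane 2 alone (log2 fold change 0.65, edgeR adjusted p = 0.0127) and with DESeq2 (adjusted p = 0.0438). The authors' deposited table gives Hk3 an adjusted p of 0.0399. Adpgk had 39.98 ± 6.76 CPM in OIR and 42.1 ± 9.46 CPM in nonOIR (SD, n = 8 each, edgeR adjusted p = 0.798).

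Gpi1 and Pfkl, at the next steps, both rose. Gpi1, which turns glucose phosphate into fructose phosphate, ran from a lowest 111 through a median 138 to a highest 174 CPM over OIR libraries, against 60.8, 83.1 and 95.2 CPM over nonOIR libraries. It was 1.71-fold higher (log2 fold change 0.77 ± 0.11, SE, edgeR adjusted p = 0.000286), and the groups did not overlap. Pfkl, the liver-type phosphofructokinase and the most abundant of the 3 phosphofructokinase genes here, was at 125, 131 and 190 CPM (lowest, median, highest) in OIR and 77.8, 109 and 134 CPM in nonOIR. The groups overlap, with 3 of 8 OIR libraries above the highest nonOIR one, and the rise was 1.30-fold (log2 fold change 0.38 ± 0.11, SE, edgeR adjusted p = 0.0339). The call did not survive leaving out 1 library in 7 cases (OIR replicates 3, 4 and 5 and nonOIR replicates 5, 6, 7 and 8, edgeR adjusted p = 0.0520 to 0.0637), in lane 1 alone (edgeR adjusted p = 0.133) and without the low-count filter (edgeR adjusted p = 0.0507). Neither Pfkm nor Pfkp, the muscle and platelet forms, passed the test. Pfkm had 0, 5.01 and 6.20 CPM (lowest, median, highest) in OIR and 3.75, 7.14 and 10.8 CPM in nonOIR (edgeR adjusted p = 0.389). Pfkp had 0, 5.72 and 7.96 CPM in OIR and 1.05, 3.15 and 5.41 CPM in nonOIR (edgeR adjusted p = 0.428). For both genes the 0 in OIR is replicate 1.

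The aldolases moved in opposite directions. Aldoa, the ubiquitous aldolase, had 438, 596 and 841 CPM (lowest, median, highest) in OIR, against 298, 334 and 397 CPM in nonOIR. All 8 OIR libraries were above all 8 nonOIR libraries, and the rise was 1.81-fold (log2 fold change 0.86 ± 0.13, SE, edgeR adjusted p = 0.000453). Aldoc, the aldolase of neural tissue, was a minor transcript at 1.15, 2.92 and 4.12 CPM in OIR and 3.57, 6.32 and 9.62 CPM in nonOIR. It fell to 0.424 of its nonOIR level (log2 fold change -1.24 ± 0.29, SE, edgeR adjusted p = 0.0112), with 6 of 8 OIR libraries below the lowest nonOIR library. It did not pass in lane 1 alone (-1.53 on the log2 scale, edgeR adjusted p = 0.0582) or in lane 2 alone (-0.81, edgeR adjusted p = 0.152). Of 8 neuronal markers tested, 2 fell (Snap25 and Nefl) and 0 rose, none was at 0 in all libraries, and their summed level was 13.2 to 31.4 CPM in OIR and 25.0 to 59.0 CPM in nonOIR. Of 7 tested markers of Müller glia and astrocytes 1 rose (Vim) and 1 fell (Glul), none was at 0 in all libraries, and their list summed to 2195 to 19563 CPM in OIR and 1253 to 10532 CPM in nonOIR, most of it Apoe. Within lanes that sum was 10355 to 19563 CPM in OIR and 7819 to 10532 CPM in nonOIR for lane 1, and 2195 to 2452 CPM in OIR and 1253 to 1976 CPM in nonOIR for lane 2. These sums follow Apoe, which did not pass (log2 fold change 0.65, edgeR adjusted p = 0.524). The median log2 fold change of the 7 tested genes was -0.33, in the other direction. Of 10 rod photoreceptor markers tested 0 passed, with a summed 43.5 to 458 CPM in OIR and 70.96 to 554 CPM in nonOIR. Their part in the fall of Aldoc was not tested.

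The lower steps rose together. Tpi1, which interconverts the 3-carbon products of aldolase, was at 184, 270 and 321 CPM (lowest, median, highest) in OIR and 102, 136 and 167 CPM in nonOIR, a 1.97-fold rise without overlap (log2 fold change 0.98 ± 0.13, SE, edgeR adjusted p = 0.000234). Eno1, the main enolase, was at 166, 216 and 294 CPM in OIR and 115, 136 and 176 CPM in nonOIR. Its groups overlap, with 6 of 8 OIR libraries above the highest nonOIR one, and it rose 1.57-fold (log2 fold change 0.65 ± 0.13, SE, edgeR adjusted p = 0.00292). Pkm, the pyruvate kinase gene of most tissues, had the largest rise of the 10, at 274, 477 and 681 CPM in OIR and 177, 230 and 261 CPM in nonOIR. It rose 2.18-fold (log2 fold change 1.12 ± 0.17, SE, edgeR adjusted p = 0.000435), and OIR replicates 1 and 2 came closest to the nonOIR libraries. Counts are per gene, so its alternatively spliced M1 and M2 forms are not separated.

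Ldha, the lactate dehydrogenase subunit favoured for making lactate, closed the path. Its OIR libraries held 387, 534 and 802 CPM (lowest, median, highest) and its nonOIR libraries 288, 319 and 366 CPM. They did not overlap, and the rise was 1.74-fold (log2 fold change 0.80 ± 0.13, SE, edgeR adjusted p = 0.000916). Ldhb, the subunit favoured for using lactate, was at 644 ± 64.3 CPM in OIR and 636 ± 67.2 CPM in nonOIR (SD, n = 8 each), and did not pass (log2 fold change 0.02 ± 0.08, SE, edgeR adjusted p = 0.920, with a sign that turned under upper-quartile scaling, -0.0079, and without OIR replicate 1, -0.0066).

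**Figure D2:**
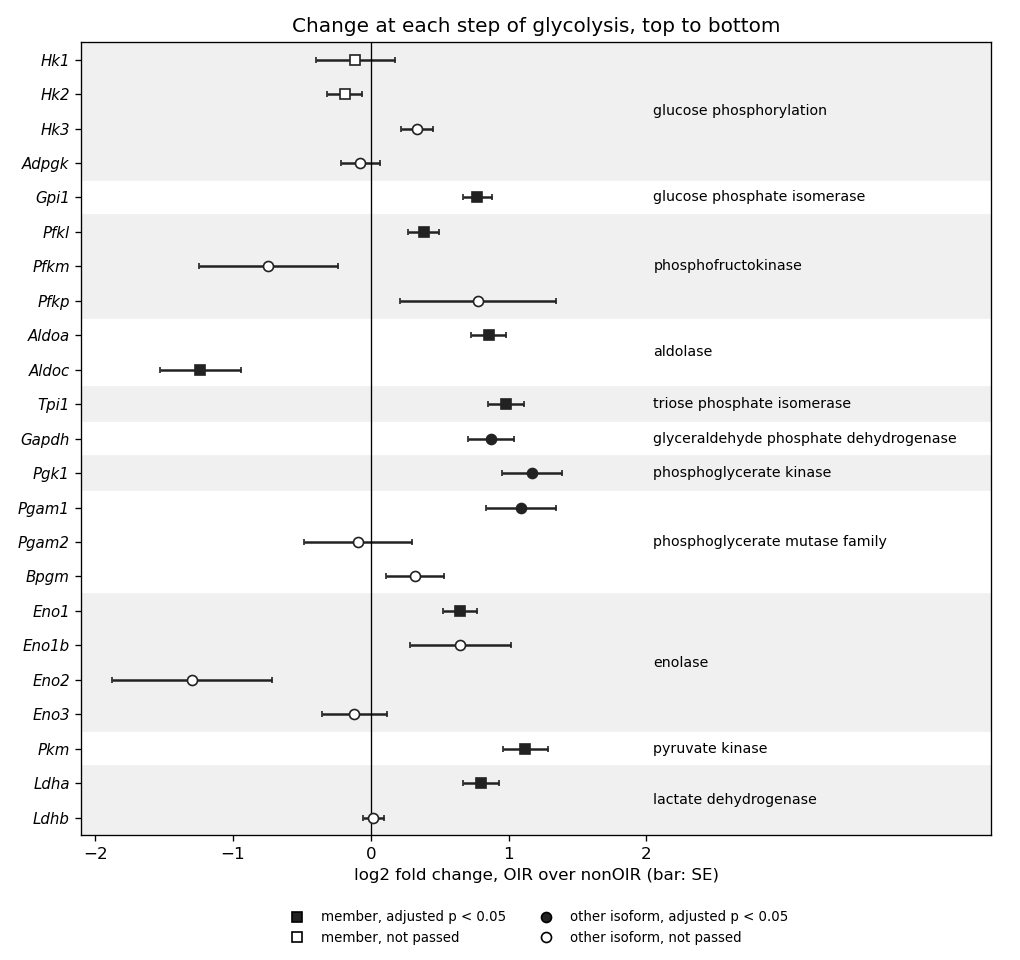
Log2 fold change (OIR over nonOIR, bars are SE) of the 10 enzyme genes (squares) and 13 other tested isoforms (circles), in pathway order from top to bottom, filled where the adjusted p is under 0.05. From Gpi1 to Ldha each step has at least 1 filled symbol to the right of 0, the glucose phosphorylation step has none, and Aldoc is filled on the left. Hk3, at the glucose phosphorylation step, passed under some alternatives that are not drawn.

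Among 21 other glycolytic genes listed, 13 were tested, 3 rose and 0 fell, where 6.39% of all genes tested rose and 4.56% fell, and Pgk2 and Ldhal6b had 0 counts in all libraries. The 3 that rose carry the steps between Tpi1 and Eno1. Gapdh, the glyceraldehyde phosphate dehydrogenase, was at 38.7 ± 12.4 CPM in OIR and 21.2 ± 2.63 CPM in nonOIR (1.83-fold, edgeR adjusted p = 0.00253). Pgk1, phosphoglycerate kinase, was at 12.1 ± 4.68 CPM in OIR and 5.39 ± 1.03 CPM in nonOIR (2.25-fold, edgeR adjusted p = 0.00230). Pgam1, the mutase, was at 5.78 ± 2.07 CPM in OIR and 2.71 ± 0.678 CPM in nonOIR (2.13-fold, edgeR adjusted p = 0.00938, SD and n = 8 each for all 3). Gapdh and Pgam1 did not pass in lane 1 alone (edgeR adjusted p = 0.0771 and 0.156). All 3 hold much sequence in common with other genes. Of their 50-base windows (the read length), 25.1% in Gapdh, 53.9% in Pgk1 and 36.2% in Pgam1 also occur in transcripts of other GENCODE genes. Pseudogenes among those genes number 213 for Gapdh, 5 for Pgk1 and 4 for Pgam1, and the sources used here do not say how such reads were counted, so these levels are uncertain. Among the 10 enzyme genes the share was 25.99% in Eno1, 25.8% in Pkm, 15.8% in Gpi1, 9.26% in Ldha, 6.43% in Aldoa and 4.18% in Tpi1, and at most 1.22% in the other 4. The same uncertainty holds for Eno1 and Pkm, and to a lesser degree for Gpi1, Ldha, Aldoa and Tpi1. Genes that share windows number 122 for Gpi1 (3 pseudogenes) and 328 for Ldha (19 pseudogenes). Eno2, the neuronal enolase, had 0, 1.84 and 4.59 CPM (lowest, median, highest) in OIR and 1.48, 5.79 and 10.9 CPM in nonOIR, with overlap, and did not pass (log2 fold change -1.30 ± 0.58, SE, edgeR adjusted p = 0.171). Pgam2, Bpgm, Eno1b and Eno3 did not pass either, with edgeR adjusted p = 0.286 to 0.920 and levels of at most 14.0 CPM as a group mean. The log2 fold change of Eno3, the muscle enolase, was -0.12 with all libraries and 0.0077 without OIR replicate 1.

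Of 24 listed genes that set glycolytic flux or the fate of pyruvate, 21 were tested, 1 rose and 2 fell, where 10.9% of all genes tested were called. The median log2 fold change of the 21 was 0.00, against -0.03 over all genes. Me1, the cytosolic malic enzyme, rose to 4.10 ± 2.34 CPM in OIR, against 0.950 ± 0.663 CPM in nonOIR (edgeR adjusted p = 0.0458). Pdp2, a phosphatase that activates pyruvate dehydrogenase, fell to 15.9 ± 3.64 CPM in OIR, against 22.9 ± 4.08 CPM in nonOIR (edgeR adjusted p = 0.0388). Pfkfb4, which helps set the level of an activator of phosphofructokinase, fell to 90.0 ± 13.5 CPM in OIR, against 115 ± 19.6 CPM in nonOIR (SD, n = 8 each, edgeR adjusted p = 0.0484). All 3 calls are close to the threshold, and none was stable to leaving out 1 library: the call ended without any of 11 libraries for Me1, 9 for Pdp2 and 13 for Pfkfb4 (edgeR adjusted p = 0.0529 to 0.111 over these). Of the most abundant others, Pdk1, a pyruvate dehydrogenase kinase, was at 147 ± 21.3 CPM in OIR and 147 ± 23.3 CPM in nonOIR, Pfkfb3, the related inducible enzyme, at 104 ± 19.0 CPM in OIR and 125 ± 18.4 CPM in nonOIR, and Dld, a pyruvate dehydrogenase subunit, at 104 ± 11.8 CPM in OIR and 109 ± 12.1 CPM in nonOIR (SD, n = 8 each). None of these 3 passed the test (edgeR adjusted p = 0.997, 0.167 and 0.730).

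Ratios between isoforms within a library do not depend on how libraries are scaled to each other. For 1 Aldoa count there was a median of 0.00417 Aldoc counts in OIR and 0.0196 in nonOIR, and the ranges (0.00191 to 0.00705 in OIR, 0.00991 to 0.0249 in nonOIR) did not overlap. The difference in log2 ratio was -2.15 (two-sided exact permutation p = 0.000155, the smallest 8 against 8 can give, adjusted p = 0.000389 over 5 pairs). The Ldhb to Ldha ratio was 1.31 in OIR (median, range 0.718 to 1.72) and 1.98 in nonOIR (median, range 1.75 to 2.35). These ranges did not overlap, and the log2 difference was -0.74 (exact permutation adjusted p = 0.000389). In OIR replicates 6, 7 and 8, all of lane code 2, Ldha counts exceeded Ldhb counts, which they did in no other library. Counts are not corrected for gene length, and 20.99% of the 50-base windows of Ldhb also occur in another gene's transcripts. The crossing therefore does not rank the levels of Ldha and Ldhb. The Eno2 to Eno1 ratio had a median of 0.00985 in OIR and 0.0402 in nonOIR, with overlap (log2 difference -2.58, exact permutation adjusted p = 0.00285), and OIR replicate 3 had 0 Eno2 counts. Without that library the log2 difference was -1.68. Hk2 to Hk1 (median 5.49 in OIR, 5.98 in nonOIR, exact permutation adjusted p = 0.515) and Pfkp to Pfkl (median 0.0369 in OIR, 0.0291 in nonOIR, exact permutation adjusted p = 0.923) did not pass. For Pfkp to Pfkl the sign of the log2 difference rests on OIR replicate 1, which had 0 Pfkp counts: it was -0.38 with that library and 0.62 without it.

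**Figure D3:**
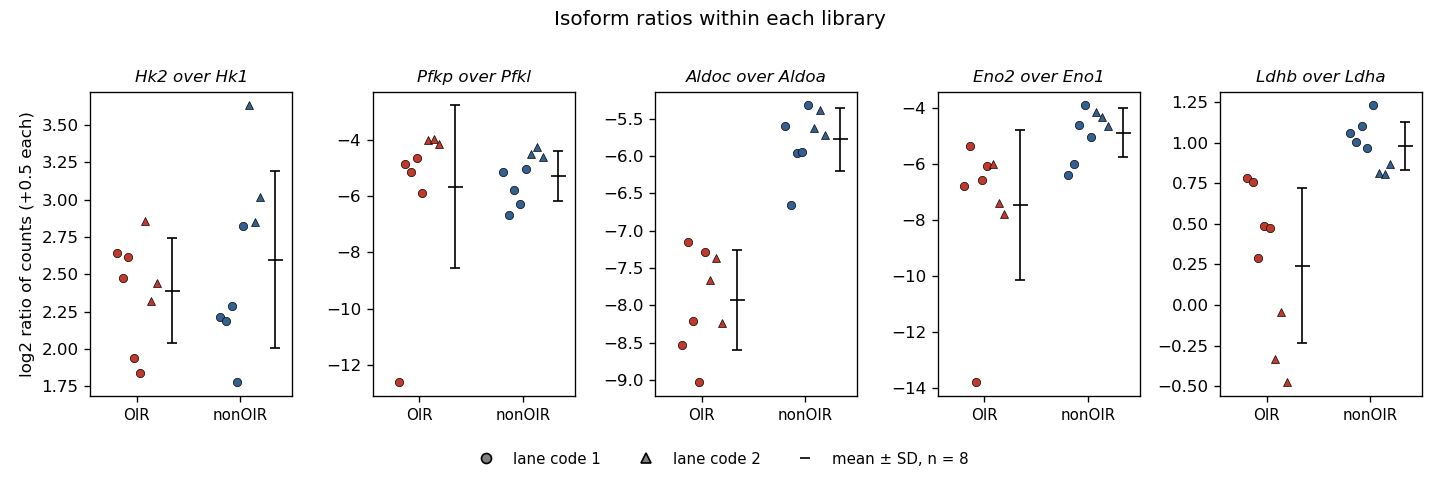
Log2 ratio of counts (0.5 added to each) between isoforms of the same step in each library, OIR left and nonOIR right in every panel, with circles for lane code 1, triangles for lane code 2, and bars for mean ± SD over 8 libraries. Aldoc over Aldoa and Ldhb over Ldha separate the groups, and the points near -12.6 and -13.8 are libraries with 0 counts of Pfkp and of Eno2.

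Whether the 10 genes moved apart from each other was asked in the same way for all 45 pairs, a test added after the values were seen, and 27 pairs passed. Hk2 fell relative to each of the 7 genes that rose, by a log2 ratio difference of -0.58 (against Pfkl) to -1.26 (against Pkm), with exact permutation adjusted p = 0.000583 to 0.003885 over 45 pairs. Those 7 were taken for their rise in the same libraries, so this is no independent support. Of the 7, Hk1 passed against Tpi1 and Pkm (exact permutation adjusted p = 0.0210 for both). It did not pass against Gpi1, Pfkl, Aldoa, Eno1 or Ldha (exact permutation adjusted p = 0.0562 to 0.193). Pfkl rose less than Pkm (log2 ratio difference -0.68, exact permutation adjusted p = 0.00165) and less than Tpi1 (-0.59, adjusted p = 0.00165 by the same exact permutation test). Eno1 rose less than Pkm (-0.43, exact permutation adjusted p = 0.00165). The rises of Gpi1, Aldoa and Ldha did not differ past the threshold from each other (log2 ratio differences of 0.01 to 0.07 in size, exact permutation adjusted p = 0.407 to 0.912). Aldoc differed from all 9 others in this test (exact permutation adjusted p = 0.000583 to 0.0283).

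Per kilobase of exon (GENCODE M21), the level in OIR was highest for Aldoa at 211 ± 51.3 CPM per kb, followed by Ldha at 169 ± 45.99, Pkm at 96.8 ± 30.1, Tpi1 at 95.8 ± 18.6 and Eno1 at 41.3 ± 8.55. In nonOIR Aldoa stood at 117 ± 13.3 CPM per kb, Ldha at 97.2 ± 8.24, Tpi1 at 48.6 ± 9.06, Pkm at 44.5 ± 6.16 and Eno1 at 26.4 ± 4.27 (SD, n = 8 each). Gpi1, Pfkl and Hk2 lay between 12.6 and 21.6 CPM per kb in both groups, and neighbours in the order overlapped within 1 SD, as did Aldoa with Ldha and Pkm with Tpi1 in both groups, Ldha with Pkm in OIR, and Eno1 with Hk2 in nonOIR. Hk1 (2.32 ± 0.742 in OIR, 2.51 ± 1.23 in nonOIR) and Aldoc (0.824 ± 0.353 in OIR, 1.94 ± 0.521 in nonOIR) were lowest per kb, and overlapped within 1 SD in nonOIR but not in OIR. Ldhb, outside the 10, reached 410 ± 40.99 CPM per kb in OIR and 405 ± 42.8 in nonOIR. Each length is the union of all annotated exons of a gene, 1570 bases for Ldhb, 2911 for Aldoa, 3310 for Ldha and 5001 for Pkm. The transcripts present may be shorter than this union, so the order between genes depends on the annotation.

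The estimated size of the rise differed between the lane codes, though the tests of this were not stable. Pkm was 0.71 ± 0.15 higher on the log2 scale in lane 1 (5 against 5 libraries, edgeR adjusted p = 0.0205) and 1.79 ± 0.12 in lane 2 (3 against 3, edgeR adjusted p = 7.51e-05, SE). The difference between these log2 fold changes was 1.04 ± 0.22 (SE, edgeR interaction test, adjusted p = 0.0448). Aldoa was 0.55 ± 0.10 higher in lane 1 and 1.36 ± 0.11 in lane 2 (SE, difference 0.77 ± 0.16, edgeR interaction adjusted p = 0.0428). These were the 2 of 10 genes that passed the interaction test, against 0.496% of all genes tested. Eno1 did not pass (difference 0.80, edgeR interaction adjusted p = 0.0510), nor did Tpi1 (0.77, adjusted p = 0.0780 in the same test). The estimate was larger in lane 2 for all 10 genes, against 49.1% of all genes tested, though for Pfkl the sign turned without nonOIR replicate 6 (-0.00095). The outcomes of the interaction test for Aldoa, Pkm and Eno1 were not stable. Of 19 settings (3 scalings and each library left out) Aldoa passed in 8, Pkm in 8, Eno1 in 6 and Tpi1 in 1. The edgeR interaction adjusted p ran from 0.0164 to 0.109 over Aldoa and Pkm and from 0.0224 to 0.121 for Eno1. In lane 1 alone 5 of 10 genes rose and 0 fell, where 2.2% of all genes rose and 1.13% fell, and Pfkl and Eno1 did not pass (edgeR adjusted p = 0.133 and 0.116). In lane 2 alone 7 of 10 rose and 0 fell, where 9.63% of all genes rose and 5.77% fell.

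**Figure D4:**
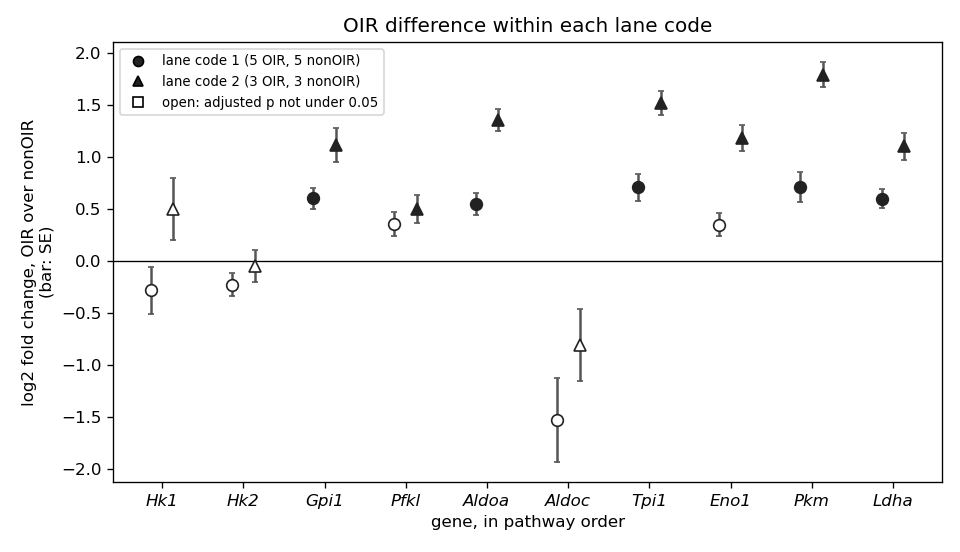
Log2 fold change (OIR over nonOIR, bars are SE) of the 10 enzyme genes within lane code 1 (circles, 5 libraries a group) and lane code 2 (triangles, 3 libraries a group), filled where the adjusted p is under 0.05. Lane 2 lies above lane 1 for each gene, with the widest gap for Pkm (0.71 against 1.79).

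Markers of dividing cells were on average also higher in lane 2 within OIR, with overlap between the lanes. In OIR their summed level was 74.1 to 317 CPM in lane 1 and 282 to 391 CPM in lane 2, against 32.7 to 57.8 CPM and 27.6 to 45.1 CPM in nonOIR. The summed microglial markers were 53488 to 63417 CPM in lane 1 and 38159 to 44804 CPM in lane 2 in OIR, against 66416 to 80702 CPM and 65173 to 69723 CPM in nonOIR. The summed markers of Müller glia and astrocytes averaged 14417 CPM in lane 1 and 2309 CPM in lane 2 in OIR, against 9334 CPM and 1689 CPM in nonOIR. Most of that sum was Apoe, at a mean of 9542 CPM in OIR and 6087 CPM in nonOIR over both lanes. The median log2 fold change of the 7 tested genes of that list was -0.33. Rod markers averaged 115 CPM in lane 1 and 308 CPM in lane 2 in OIR, against 216 CPM and 420.1 CPM in nonOIR. OIR replicates 1 and 2 had the lowest summed enzyme level (1855 and 1886 CPM) and the lowest dividing-cell sums (74.1 and 95.2 CPM), and OIR replicates 6 and 8 the highest enzyme sums (3271 and 3311 CPM) beside 391 and 307 CPM of dividing-cell markers. The orders differed between these ends. OIR replicate 3 had 317 CPM of dividing-cell markers beside an enzyme sum of 2648 CPM, and OIR replicate 4 had 152 CPM beside 2482 CPM. The part of these marker differences in the rise of the enzymes was not tested, and lane cannot be told apart from whatever batch the code stands for.

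Some of the enzymes varied together within groups. Deviations from the group mean of log2(CPM + 1) had a Pearson r over the 16 libraries of 0.93 for Eno1 with Pkm and for Aldoa with Pkm, and 0.90 for Aldoa with Eno1, and the lowest was -0.47 for Hk2 with Ldha. The coefficients were closer to 0 once lane was removed. With deviations taken from the mean of each group and lane, a choice made after the values were seen, r was 0.84 for Eno1 with Pkm, 0.82 for Aldoa with Pkm, 0.83 for Aldoa with Eno1 and -0.0029 for Hk2 with Ldha. All coefficients are descriptive, since the points share library and depth. Of 5980 other genes with a mean of at least 20 CPM, the 5 most like the mean of the 10 enzymes by the first measure, which carries the lane difference, were Rnpep (r = 0.89), Tacc3 (r = 0.87), Nrd1 (r = 0.86), Mdh2 (r = 0.86) and Ucp2 (r = 0.86). Of these, Tacc3, a spindle gene, was at 38.2 ± 22.5 CPM in OIR and 9.52 ± 4.68 CPM in nonOIR, Nrd1, a protease gene, at 76.1 ± 17.6 CPM in OIR and 40.3 ± 7.49 CPM in nonOIR, and Ucp2, a mitochondrial carrier, at 1010 ± 114 CPM in OIR and 674 ± 111 CPM in nonOIR (SD, n = 8 each), and these 3 rose (edgeR adjusted p = 0.00334, 0.000807 and 0.00124). Rnpep, an aminopeptidase gene, was at 145 ± 22.7 CPM in OIR and 115 ± 23.1 CPM in nonOIR, and Mdh2, mitochondrial malate dehydrogenase, at 208 ± 26.1 CPM in OIR and 173 ± 17.4 CPM in nonOIR (SD, n = 8 each), and neither passed (edgeR adjusted p = 0.111 and 0.0549).

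Positions are from GENCODE M21 on mm10, the build named in the submitters' processing notes. Pkm lies on chromosome 9 from 59656368 to 59679375 (plus strand), Aldoa on chromosome 7 from 126795234 to 126800751 (minus strand), Ldha on chromosome 7 from 46841475 to 46855627 (plus strand), Tpi1 on chromosome 6 from 124810586 to 124814296 (minus strand), Hk2 on chromosome 6 from 82725025 to 82774454 (minus strand) and Aldoc on chromosome 11 from 78322968 to 78327781 (plus strand). Exons of Aldoa overlap those of Fam57b, those of Tpi1 overlap Spsb2, those of Gpi1 overlap Gm26762 and those of Hk1 overlap Hk1os, each on the other strand, while Pkm overlaps Gm49759 on its own strand. The kit used does not record strand, so reads from such stretches cannot be told apart.

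The start regions of the 10 genes were searched for ACGTG and GCGTG, the short core known to be bound by hypoxia-inducible factors, on both strands. RefSeq windows of 300 bases (250 before to 50 after a start, build GRCm38.p6) were at hand for all 10 genes, 18 windows in all. At least 1 match was found in 8 of 10 genes and in 13 of 18 windows (72.2%), against 46.7% of all genes and 43.8% of all windows of that length. The shares of genes are not like for like, because the 10 genes have 18 windows and the 27025 genes of the whole table have 32851. Windows 2 and 3 of Aldoa overlap, as do windows 2 and 3 of Eno1, so some matches count in more than 1 window. Both searched strings contain CG, and the windows of the 10 genes held 51.3% to 69% G and C. The shares over all windows and all genes were not matched for this, so they are no test of an excess. The 8 include Hk1, Hk2 and Aldoc, which did not rise, and lack Gpi1 and Tpi1, which did. A palindromic CACGTG holds ACGTG on both strands and counts as 2 matches, and a match is a run of letters, not a shown site. The 250 bases before the start are shown for 3 genes that rose with a match (Ldha, Aldoa and Pkm), for Tpi1, which rose without one, for Hk2, which did not pass the test, and for Aldoc, which fell. Capitals mark the matches, each sequence reads 5′ to 3′ on the gene's strand, and where a gene has several starts the first window with the most upstream matches is given.
Ldha (chr7:46845554-46845803, plus strand): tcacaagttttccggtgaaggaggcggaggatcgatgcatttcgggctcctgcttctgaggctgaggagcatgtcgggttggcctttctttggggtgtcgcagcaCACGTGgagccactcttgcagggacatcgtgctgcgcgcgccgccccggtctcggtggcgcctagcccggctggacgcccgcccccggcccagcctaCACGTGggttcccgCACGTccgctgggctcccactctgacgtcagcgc
Aldoa (chr7:126799255-126799504, minus strand): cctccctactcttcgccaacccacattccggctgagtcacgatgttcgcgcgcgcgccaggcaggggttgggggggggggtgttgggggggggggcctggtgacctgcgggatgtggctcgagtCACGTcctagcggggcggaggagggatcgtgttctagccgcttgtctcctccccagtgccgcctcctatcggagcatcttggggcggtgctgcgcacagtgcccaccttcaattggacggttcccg
Pkm (chr9:59656977-59657226, plus strand): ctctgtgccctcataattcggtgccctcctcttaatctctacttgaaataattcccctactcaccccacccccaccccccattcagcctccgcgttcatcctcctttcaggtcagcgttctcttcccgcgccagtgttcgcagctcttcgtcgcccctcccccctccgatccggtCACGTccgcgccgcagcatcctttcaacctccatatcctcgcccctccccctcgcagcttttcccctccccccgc
Tpi1 (chr6:124814159-124814408, minus strand): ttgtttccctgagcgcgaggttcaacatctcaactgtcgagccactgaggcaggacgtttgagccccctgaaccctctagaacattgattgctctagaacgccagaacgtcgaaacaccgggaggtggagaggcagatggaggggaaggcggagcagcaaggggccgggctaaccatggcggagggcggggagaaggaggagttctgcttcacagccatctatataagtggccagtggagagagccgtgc
Hk2 (chr6:82774455-82774704, minus strand): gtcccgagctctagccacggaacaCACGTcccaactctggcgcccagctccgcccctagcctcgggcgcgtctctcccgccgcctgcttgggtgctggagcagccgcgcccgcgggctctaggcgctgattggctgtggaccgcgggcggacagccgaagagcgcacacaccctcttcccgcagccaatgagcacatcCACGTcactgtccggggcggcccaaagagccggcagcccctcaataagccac
Aldoc (chr11:78322823-78323072, plus strand): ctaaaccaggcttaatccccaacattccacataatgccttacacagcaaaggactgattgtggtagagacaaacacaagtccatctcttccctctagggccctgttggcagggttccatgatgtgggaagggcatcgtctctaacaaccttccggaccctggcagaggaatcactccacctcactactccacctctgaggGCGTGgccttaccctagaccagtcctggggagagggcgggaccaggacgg
Ldha had the most matches, 7 in its first window, 5 of them before the start and 2 pairs of those forming CACGTG, a string present in 7.15% of all windows. Hk2, which did not pass the test, had 2 matches before the start, and Tpi1, which rose 1.97-fold, had no match in this window.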

How the data were processed

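Libraries from 8 OIR and 8 nonOIR samples of sorted retinal microglia were made with a SMARTer and Nextera XT workflow (750 pg of RNA, 12 cycles of cDNA amplification) and read as single 50-base reads, per the labels' protocols. The counts deposited by the authors are unnormalized whole numbers per gene, as the file headers call them raw. Upstream tools named in the submitters' processing notes, with no role given, were STAR 2.6.0b-1, featureCounts 1.6.2, FastQC 0.72 and DESeq2 2.11.40.2, with build mm10. The sources used here do not name an annotation. The authors also deposited a normalized signal per library, a log2 fold change with standard error and Wald score, and p-values. Of these the adjusted p and the sign of the log2 value were used, to compare calls.

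Here genes passed filterByExpr, library sizes were scaled by TMM, and group was tested as the single factor in edgeR 4.0.16 (R 4.3.3, quasi-likelihood F test with robust fits, Benjamini-Hochberg over 12496 genes, threshold 0.05). SE is the log2 fold change over the square root of F. The code was tested on simulated data. Ratios took 2-sided exact permutation tests over libraries after adding 0.5 counts. Totals ran from 13591651 to 30001463 counts. With no molecular identifiers, PCR copies count as reads, so depth bounds counting error alone. Groups and replicate numbers came from titles, lane codes from descriptions. Genes named were the 10 enzymes, tested isoforms of the same steps, called genes of a flux list with its 3 most abundant others, and the 5 most alike. Snap25, Nefl, Vim, Glul, Ccr2 and Plac8 were named after their values were seen. Members and lists were chosen with earlier results of these data known. Alternatives changed scaling, filter, lane, replicate block, tool (DESeq2 1.42.0) and each library in turn. Every pair of libraries within a group differed by more than sampling noise (lowest chi-square per gene 15.7).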

Additional observations from a re-analysis of the deposited data

Results flagged for a closer look

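Of 68 sets of 8 libraries examined, 3 had 1 library far from the other 7, where chance alone gives about 1 in 20. Adpgk stood at 54.5 CPM in OIR replicate 3, against 42.5 CPM in the next OIR library and 32.7 CPM in the lowest. The Pfkp to Pfkl log2 ratio was -12.63 in OIR replicate 1, which had 0 Pfkp counts, against -5.91 in the next OIR library. The Eno2 to Eno1 log2 ratio was -13.79 in OIR replicate 3, which had 0 Eno2 counts, against -7.76 in the next OIR library. The OIR difference was larger in lane 2 than in lane 1 for Aldoa, by 0.77 on the log2 scale, and for Pkm, by 1.04. Both passed the edgeR interaction test with all libraries, but each in only 8 of 19 other settings.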

How the results depend on the processing

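Over 26 alternatives Gpi1, Aldoa, Tpi1, Pkm and Ldha kept direction and call in each, and the enzymes called ran from 5 to 7 higher and from 0 to 1 lower, with 0 lower in lane 1 alone and 0 in lane 2 alone. With each library left out in turn, 353 (without OIR replicate 6) to 648 (without OIR replicate 1) of all genes were lower, against 570. Genes called higher numbered 1210 with lane as a covariate, 276 in lane 1 and 1260 in lane 2, against 798, and genes called lower 949 with the covariate, 141 in lane 1, 364 with library totals, 343 without the filter and 885 with DESeq2. The higher share of calls was 58.3%, but 73.7% with library totals, 64.9% without the filter and 66.2% in lane 1, and scaling left the median of all genes between -0.06 and 0.04. Same-numbered libraries do not count as pairs (correlations of deviations -0.0297 to 0.513, own number best for 2 of 8). With the replicate block 7 enzymes rose and 1 fell, 965 of all genes rose and 714 fell, Pfkfb3 passed (edgeR adjusted p = 0.0321) and the Hk1 log2 fold change was 0.0056. Directions turned for genes that did not pass: Hk1 in lane 2 (0.50) and over single omissions (-0.25 to 0.044), Adpgk in lane 1 (0.019; omissions -0.14 to 0.00016), Pgam2 in lane 1 (0.44; omissions -0.22 to 0.028), Eno3 in lane 2 (0.46; omissions -0.22 to 0.0077), Ldhb with upper quartile (-0.0079) and in lane 2 (-0.025; omissions -0.0087 to 0.068), Pdk1 with upper quartile (-0.025), the covariate (-0.0035) and lane 1 (-0.042; omissions -0.039 to 0.048) and Dld with library totals (0.0072). The lane difference of Pfkl ran from -0.00095 to 0.26 over omissions. Log2 ratio differences turned for Hk2 over Hk1 in lane 1 (0.043) and for Pfkp over Pfkl in lane 2 (0.41), without OIR replicate 1 and nonOIR replicate 8 (0.71) and over omissions (-0.62 to 0.62). With 3 against 3 libraries the smallest exact permutation p is 0.1, so in lane 2 Aldoc over Aldoa (-2.18), Eno2 over Eno1 (-2.67) and Ldhb over Ldha (-1.11) could not pass and 0 of 45 pairs did; Eno2 over Eno1 also missed in lane 1 (-2.53). The other causes were not tested.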
